A study of Mus musculus with 8 samples.

Results

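The 10 genes described here encode proteins that start, carry forward, restrain or dissolve blood clotting where blood meets the vessel wall: F3, F10, F2r, Thbd, Procr, Pros1, Tfpi, Tfpi2, Plau and Plaur. They were chosen by symbol, as listed coagulation and fibrinolysis genes, with no threshold on their values, and are 10 of the 21859 genes counted in each library. RNA-Seq was performed on whole aortas of 40-week-old male mice on chow diet, 4 ApoE-/- mice and 4 wild-type (WT) C57BL/6 mice, with 1 library per mouse. The ApoE-/- mice carry a germline knockout of the gene for apolipoprotein E, present in every cell, and are prone to atherosclerosis. The study's methods place its ApoE-/- line on the C57BL/6 background too. The WT mice carry no knockout and received the same diet.

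Clotting at a vessel wall starts when tissue factor, encoded by F3, meets factor VII and the pair activates factor X, encoded by F10, which leads to thrombin. Tissue factor pathway inhibitor, thrombomodulin, the endothelial protein C receptor and protein S hold this sequence in check, and thrombin also signals to cells through protease-activated receptors such as F2r. Urokinase, encoded by Plau and held at the cell surface by its receptor Plaur, turns plasminogen into plasmin, which dissolves fibrin. In an artery the endothelium is known for its anticoagulant proteins, while tissue factor sits in the deeper wall and in lesions.

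Apoe itself lay at 14.7 to 36.3 CPM (counts scaled to the size of each library, with TMM factors) in the ApoE-/- aortas and at 536 to 857 CPM in the WT aortas, so the genotypes matched their labels. Between 23240995 and 23940156 read pairs per ApoE-/- library and between 18375898 and 21664598 per WT library fell on genes. This was 32.3% to 35.6% and 27.9% to 30.2% of the counted pairs. The replicate 1 library of ApoE-/- stood apart: contractile smooth muscle markers summed to 5559 CPM there, against 13680 to 22780 CPM in the other ApoE-/- aortas and 12320 to 22980 CPM in WT. It had the lowest CPM of all 8 libraries for 6 of the 10 genes and the lowest within its genotype for 9, F10 being the exception. Each of the 10 genes is therefore given with and without this mouse. For the 9 genes, leaving out the lowest ApoE-/- value raises the fold change by construction. A pass without this mouse is therefore no separate support for a difference.

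The sequences before the transcription start of F3, Plaur and F10 are shown because F3 starts the cascade and because F10 and Plaur had the smallest p-values of the list. They come from RefSeq on GRCm38.p6, plus strand, 250 bases up to the base before the start. Capitals mark matches, on either strand, to the AP-1 motif TGANTCA and to the GC box GGGCGG.
F3, chr3:121723287-121723536: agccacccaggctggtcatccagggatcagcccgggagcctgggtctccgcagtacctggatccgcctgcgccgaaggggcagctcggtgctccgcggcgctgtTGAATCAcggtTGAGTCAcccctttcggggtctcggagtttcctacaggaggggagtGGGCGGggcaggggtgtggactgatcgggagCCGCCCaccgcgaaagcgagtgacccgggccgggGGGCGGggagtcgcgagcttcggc
Plaur, chr7:24462233-24462482: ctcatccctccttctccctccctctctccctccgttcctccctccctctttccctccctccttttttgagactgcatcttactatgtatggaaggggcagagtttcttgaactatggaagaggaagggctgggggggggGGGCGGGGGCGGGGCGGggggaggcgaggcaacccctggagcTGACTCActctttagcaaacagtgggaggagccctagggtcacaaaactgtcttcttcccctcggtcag
F10, chr8:13037058-13037307: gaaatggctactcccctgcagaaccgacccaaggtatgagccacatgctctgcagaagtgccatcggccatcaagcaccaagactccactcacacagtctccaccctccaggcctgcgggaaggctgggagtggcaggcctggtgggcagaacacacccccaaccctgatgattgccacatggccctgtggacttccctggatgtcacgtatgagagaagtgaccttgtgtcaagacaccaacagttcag
The F3 stretch held 2 AP-1 matches, which began 146 and 135 bases before the start, and 3 GC boxes, with a GC content of 70%. The Plaur stretch held 1 AP-1 match, beginning 69 bases before the start, and 3 GC boxes, the last pair of which share 1 base, with a GC content of 59.6%. The F10 stretch held neither motif and had a GC content of 57.6%. In windows of 300 bases, from 250 before to 50 after a start, 8 of the 10 genes had at least 1 window in the table. At least 1 window of F3, Plaur, F2r, Procr and Tfpi2 (5 of 8 genes, 5 of 11 windows) held TGANTCA, as did 7.81% of all 32851 windows. GGGCGG was in windows of 6 of the 8 genes (7 of 11 windows), against 35.7% of all windows. The TATA box TATAAA was in 2 of 11 windows (13.6% of all) and the CCAAT box CCAAT in 3 of 11 (37.4% of all). The motifs were picked with these sequences in view, and a match is a string of letters, not a site known to be bound. Thbd and Plau had no window.

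On a scale per length (RPKM, CPM per kilobase of merged exons), Thbd was the most abundant of the 10 transcripts with a mean of 42.6 over the 8 aortas, followed by F3 at 35.5, Pros1 at 26.4 and F2r at 20.3. Procr at 10.6 and Plau at 9.69 came next, then Tfpi at 4.73 and Plaur at 4.47, an order that differed by genotype (means of 4.27 and 5.41 in ApoE-/-, 5.185 and 3.53 in WT). Tfpi2 at 0.601 and F10 at 0.238 closed the order. The ranges over the 8 aortas overlapped between all neighbours in this order except Plau and Tfpi, and Plaur and Tfpi2. The gene with the larger mean was the higher in all 8 libraries for F3 against Pros1, F2r against Procr, Plau against Tfpi, Plaur against Tfpi2 and Tfpi2 against F10, in 7 for Pros1 against F2r and Procr against Plau, in 6 for Thbd against F3, and in 5 for Tfpi against Plaur.

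**Figure D1:**
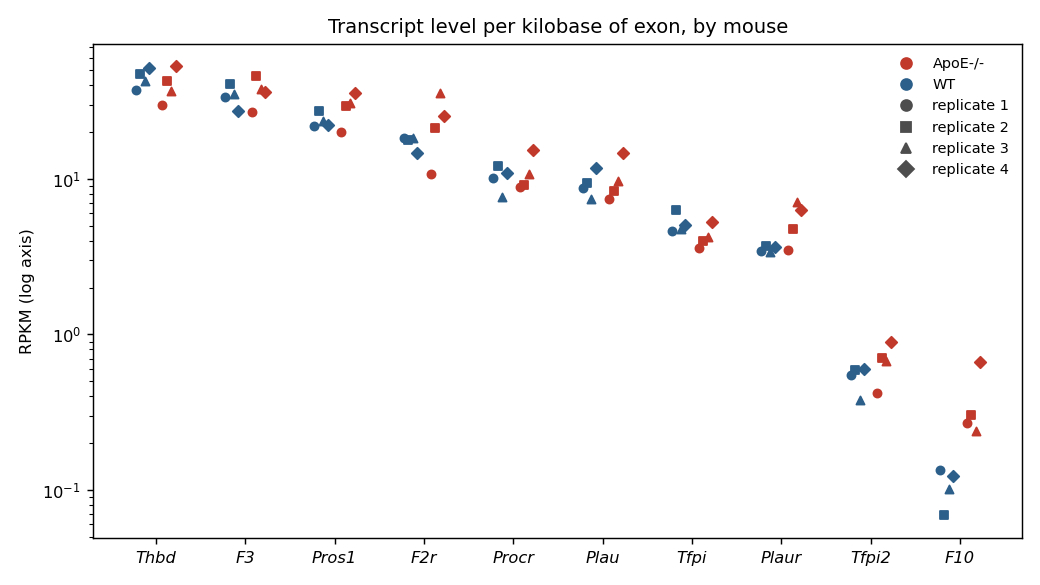
Transcript level per kilobase of exon (RPKM, log axis) of the 10 genes in each mouse, WT in blue and ApoE-/- in red, with 1 marker shape per replicate number. The genes are ordered by their mean over the 8 aortas, from Thbd at 42.6 to F10 at 0.238, and Tfpi2 and F10 lie below all other genes in every library.

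None of the 10 genes passed an adjusted p of 0.05 between ApoE-/- and WT aortas with edgeR's quasi-likelihood test, where 0.464% of the 15077 tested genes did. Only F10 and Plaur had an unadjusted p under 0.05, where 11.4% of all tested genes did, and F10 passed the low-count filter only through its ApoE-/- level. The log2 fold change (ApoE-/- over WT) was positive for 8 of the 10 and negative for Thbd and Tfpi, with a median of 0.20 against 0.05 over all tested genes, of which 58% were positive. With DESeq2's Wald test, the tool named in the study's methods, F10 alone passed, where 4.29% of genes did. Without ApoE-/- replicate 1, edgeR passed Plaur alone (3.91% of genes), and DESeq2 passed F10, Plaur, F2r and Pros1 (9.18% of genes). F10 was the only gene of the list whose genotypes did not overlap, 1 of 10 where 5.41% of tested genes lay wholly higher and 3.3% wholly lower in ApoE-/-.

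**Figure D2:**
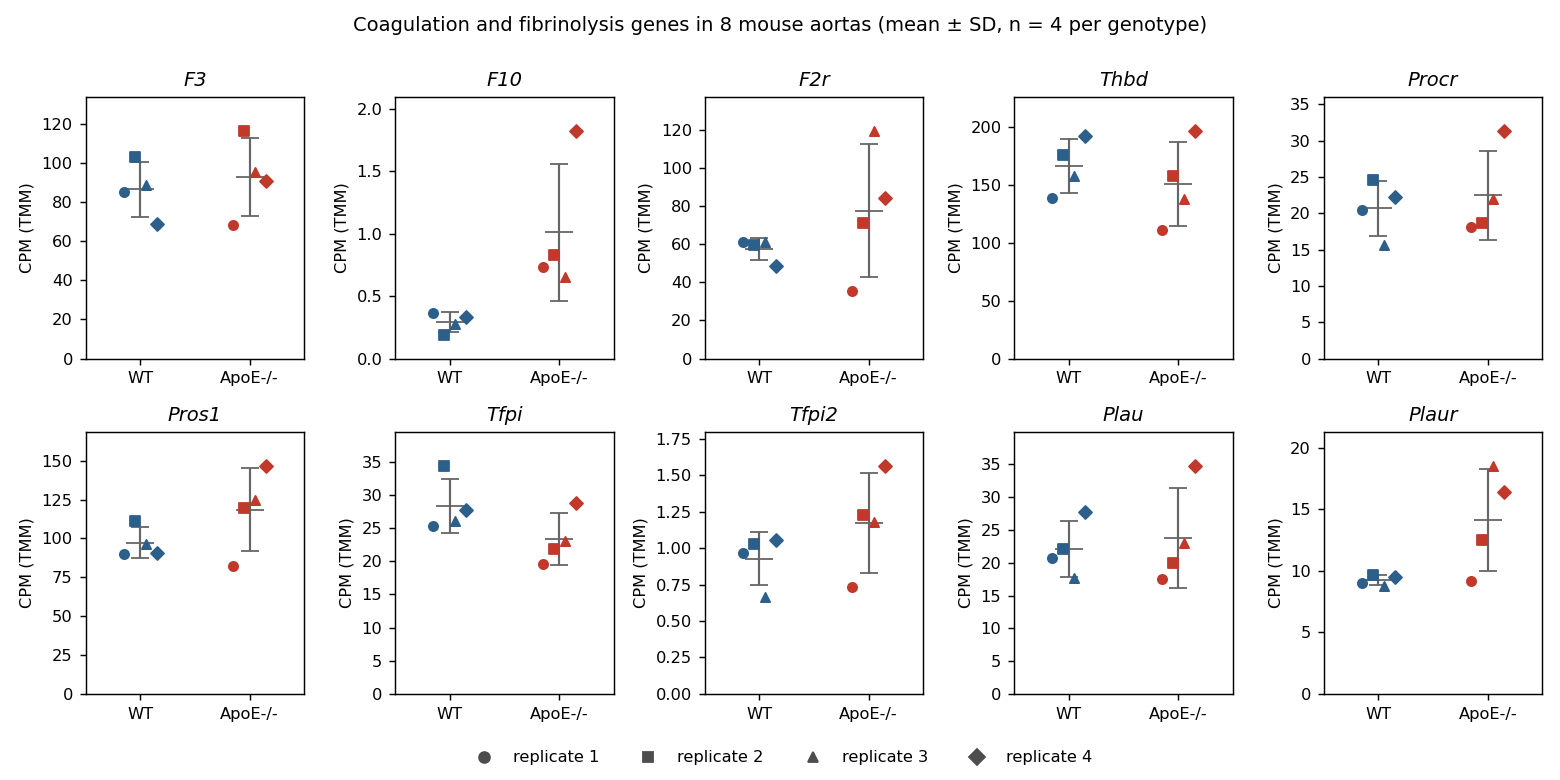
CPM of the 10 genes in each aorta, WT in blue and ApoE-/- in red, with 1 marker shape per replicate number, and mean ± SD over 4 mice as the grey bar. F10 is the only gene whose genotypes do not overlap, and the circle of ApoE-/- replicate 1 is the lowest ApoE-/- value for every gene except F10.

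F3 encodes tissue factor, the membrane receptor that starts coagulation (chr3:121723537-121735048, plus strand, GRCm38). Its CPM in ApoE-/- replicates 1 to 4 was 68.1, 116.5, 95.6 and 90.8, and in WT replicates 1 to 4 it was 85.1, 103.2, 88.6 and 68.9. The genotypes overlapped over most of their range, and the lowest and the highest values both came from ApoE-/-. The means were 92.8 ± 19.8 and 86.5 ± 14.1 (SD, n = 4 each). The edgeR log2 fold change was 0.10 (SE 0.18, 95% interval -0.32 to 0.52, adjusted p = 0.896). It was 0.23 (adjusted p = 0.491) without ApoE-/- replicate 1, and its sign turned on leaving out single mice, over a range from -0.03 to 0.23.

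F10 encodes factor X, the protease that makes thrombin from prothrombin and is known mainly as a liver product (chr8:13037308-13056676, plus strand). It was counted 18, 19, 15 and 42 times in ApoE-/- replicates 1 to 4, which is 0.731, 0.831, 0.653 and 1.82 CPM. In the WT replicates it was counted 8, 4, 5 and 7 times, 0.367, 0.187, 0.277 and 0.335 CPM. Every ApoE-/- aorta lay above every WT aorta, and replicate 4 stood above the other 3 ApoE-/- mice. The means were 1.01 ± 0.547 and 0.292 ± 0.079 CPM (SD, n = 4 each), a fitted 3.41-fold difference on few reads. On the log2 scale edgeR gave 1.77 (SE 0.42, 95% interval 0.80 to 2.74, adjusted p = 0.113, unadjusted p = 0.0029). DESeq2 gave 1.78 (SE 0.56, adjusted p = 0.0378). An exact two-sided permutation test on the CPM gave p = 0.0286, the smallest that 4 against 4 allows. All 4 WT libraries lay under the 0.445 CPM of the low-count filter, so the gene was tested only through its ApoE-/- level. Single mice moved the edgeR adjusted p between 0.0618, without ApoE-/- replicate 1, and 0.305, and its log2 fold change between 1.32, without ApoE-/- replicate 4, and 1.93. Without ApoE-/- replicate 1 it was 1.89. The DESeq2 call was lost on leaving out ApoE-/- replicate 2, ApoE-/- replicate 4 or any WT mouse.

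The gene for factor VII, F7, ends 1498 bases before F10 begins, on the same strand. It was counted 9 to 56 times in ApoE-/- and 3 to 10 times in WT, with CPM of 0.365, 1.53, 1.26 and 2.43 against 0.275, 0.234, 0.166 and 0.479, so that only ApoE-/- replicate 1 lay within the WT range. For F7 edgeR fitted a log2 fold change of 2.24 with an SE of 0.59 (adjusted p = 0.141), and DESeq2 passed it at an adjusted p of 0.0209. Without ApoE-/- replicate 1 it was 2.56 (SE 0.40), with an adjusted p of 0.016 by edgeR and 4.2e-05 by DESeq2. WT replicates 1 to 3 lay under the 0.445 CPM of the low-count filter, so F7 was tested mainly through its ApoE-/- level. These calls are therefore no separate support for a difference. Among 8 hepatocyte markers Alb was counted 0 to 6 times in ApoE-/- and 4 to 18 times in WT, and the list summed to 3.83 to 5.82 CPM against 4.04 to 6.97 CPM, most of it Tdo2, the only one of the 8 with enough reads to be tested. All 12 macrophage markers lay wholly higher in ApoE-/-, where Trem2 and Fcgr1 passed with edgeR, summing to 519.7, 887.9, 1136 and 2242 CPM in replicates 1 to 4 against 293 to 424 CPM in WT. The highest F10 and the highest macrophage sum were both in ApoE-/- replicate 4. F10 was counted 18, 19 and 15 times in ApoE-/- replicates 1, 2 and 3, too few reads to rank these mice. The part of either cell type in the F10 and F7 differences was not tested. In whole tissue, more cells of a type and more RNA per cell cannot be told apart.

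The tested genes whose log2 CPM, centred on its mean, ran closest to that of F10 over the 8 aortas were Ly86, Card9, Fcer1g, Npl and Alox5ap. Their root mean square distance from F10 was 0.17, 0.19, 0.23, 0.23 and 0.24 on the log2 scale, among 15076 genes compared, and their own log2 fold changes were 1.65, 1.24, 1.53, 1.61 and 1.28. The distance includes the difference between genotypes, so positive fold changes follow from the choice. The log2 CPM used a prior count of 2, which shrinks differences in genes with few reads such as F10.

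F2r encodes protease-activated receptor 1, through which thrombin signals to smooth muscle, endothelium and fibroblasts (chr13:95601803-95618487, minus strand). Its CPM was 35.6, 71.2, 119.7 and 84.5 in ApoE-/- replicates 1 to 4 and 61.0, 59.7, 61.2 and 48.8 in WT. Replicates 2 to 4 of ApoE-/- lay above every WT mouse and replicate 1 lay below every WT mouse. The edgeR log2 fold change was 0.43 (SE 0.32, 95% interval -0.30 to 1.16, adjusted p = 0.734). Without ApoE-/- replicate 1 it was 0.67 (SE 0.18, adjusted p = 0.088), and DESeq2 without that mouse gave an adjusted p of 0.0191. On leaving out replicate 3 instead, it was 0.15 (adjusted p = 0.871 by edgeR). Replicate 1 was also the library with the lowest smooth muscle marker sum, and the part of that in the F2r values was not tested. The 3 other protease-activated receptors, F2rl1, F2rl2 and F2rl3, had log2 fold changes of -0.33, 0.23 and -0.09, with edgeR adjusted p of 0.826, 0.878 and 0.97. Without ApoE-/- replicate 1 these fold changes were -0.08, -0.24 and 0.11, so that F2rl2 and F2rl3 turned sign.

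The 5 anticoagulant genes showed no common direction. Thbd encodes thrombomodulin, the endothelial receptor that turns thrombin toward activating protein C (chr2:148404466-148408188, minus strand, a gene with 1 exon). Its CPM was 110.9, 157.7, 137.7 and 196.6 in ApoE-/- replicates 1 to 4 and 139, 175.5, 157.9 and 192.5 in WT. The genotypes overlapped, with the lowest and the highest values both in ApoE-/-. Between genotypes the log2 fold change was -0.14 (SE 0.19, 95% interval -0.58 to 0.29, edgeR adjusted p = 0.85) and -0.02 (adjusted p = 0.975) without ApoE-/- replicate 1. Leaving out ApoE-/- replicate 4 gave -0.30.

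Procr encodes the endothelial protein C receptor, which presents protein C to thrombomodulin (chr2:155751117-155755471, plus strand). It lay at 18.1, 18.6, 21.9 and 31.3 CPM in ApoE-/- replicates 1 to 4 and at 20.5, 24.5, 15.6 and 22.2 CPM in WT. Only ApoE-/- replicate 4 exceeded the WT range. Its log2 fold change came to 0.12 (SE 0.21, 95% interval -0.37 to 0.61, edgeR adjusted p = 0.894). It was -0.08 without replicate 4 and 0.21 (adjusted p = 0.689) without replicate 1 of ApoE-/-.

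Pros1 encodes protein S, cofactor of activated protein C and of tissue factor pathway inhibitor (chr16:62854307-62929346, plus strand). It lay at 82.4, 119.7, 125.0 and 146.5 CPM in ApoE-/- replicates 1 to 4 and at 90.0, 111.4, 96.7 and 90.9 CPM in WT. As for F2r, replicates 2 to 4 of ApoE-/- were above all WT mice and replicate 1 was below them. For all 8 mice the log2 fold change was 0.28 (SE 0.18, 95% interval -0.12 to 0.69, edgeR adjusted p = 0.655). Without ApoE-/- replicate 1 it was 0.43 (SE 0.11, adjusted p = 0.0867), with an adjusted p of 0.0359 by DESeq2, and without replicate 4 it was 0.17 (edgeR adjusted p = 0.693).

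Tfpi encodes tissue factor pathway inhibitor, which blocks tissue factor with factor VII and factor X (chr2:84432855-84476775, minus strand). It lay at 19.6, 21.9, 23.0 and 28.7 CPM in ApoE-/- replicates 1 to 4 and at 25.3, 34.3, 26.04 and 27.7 CPM in WT. Replicates 1 to 3 of ApoE-/- were below every WT mouse, and replicate 4 was within the WT range. The means were 23.3 ± 3.89 and 28.3 ± 4.11 CPM (SD, n = 4 each), a log2 fold change of -0.28 (SE 0.15, 95% interval -0.63 to 0.07, edgeR adjusted p = 0.584). It was -0.21 (adjusted p = 0.528) without ApoE-/- replicate 1 and -0.18 without WT replicate 2. Endothelial markers moved beside it: 11 of the 12 had negative log2 fold changes, with a median of -0.36, and the list summed to 1547 to 2071 CPM in ApoE-/- against 2197 to 2359 CPM in WT, and 6 of the 12 lay wholly lower in ApoE-/-, though none passed. Whether this bears on Tfpi was not tested. The genes that ran closest to Tfpi over the 8 aortas were Mmrn2, Clec14a, Aif1l, Cpxm2 and Zfp456, at root mean square distances of 0.07, 0.08, 0.09, 0.10 and 0.10 on the log2 scale.

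Tfpi2 encodes a second inhibitor of this type, which acts on plasmin and other proteases in the matrix (chr6:3962595-3988919, minus strand). It was counted only 18, 28, 27 and 36 times in ApoE-/- replicates 1 to 4 and 21, 22, 12 and 22 times in WT. In CPM these were 0.731, 1.22, 1.18 and 1.56 against 0.964, 1.03, 0.665 and 1.05, so that replicates 2 to 4 of ApoE-/- were above every WT mouse. The log2 fold change of 0.33 had a wide interval (SE 0.29, 95% interval -0.33 to 0.99, edgeR adjusted p = 0.78), and without ApoE-/- replicate 1 it was 0.50 (adjusted p = 0.36). Leaving out ApoE-/- replicate 4 gave 0.16.

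The ratio of F3 to Tfpi counts sets the initiator against its inhibitor within a library and does not depend on library scaling. It was 3.47, 5.32, 4.15 and 3.16 in ApoE-/- replicates 1 to 4 and 3.36, 3.01, 3.40 and 2.49 in WT. Replicates 1 to 3 of ApoE-/- lay above every WT mouse. The log2 ratio averaged 1.98 ± 0.33 and 1.61 ± 0.21 (SD, n = 4 each), a difference of 0.37 with p = 0.114 in an exact two-sided permutation test and 0.229 after adjustment over the 2 ratios tested. The difference was 0.23 without ApoE-/- replicate 2 and 0.48 without ApoE-/- replicate 4.

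Plau encodes urokinase, which activates plasminogen (chr14:20836660-20843385, plus strand). It lay at 17.5, 19.9, 23.0 and 34.7 CPM in ApoE-/- replicates 1 to 4 and at 20.7, 22.1, 17.6 and 27.8 CPM in WT. The genotypes overlapped, and replicate 4 was the highest mouse of each genotype. Its log2 fold change came to 0.11 (SE 0.24, 95% interval -0.43 to 0.65, edgeR adjusted p = 0.924). It was -0.13 without replicate 4 and 0.23 (adjusted p = 0.673) without replicate 1 of ApoE-/-.

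Plaur encodes the urokinase receptor, which holds the enzyme at the surface of leukocytes and migrating wall cells (chr7:24462484-24475968, plus strand). It lay at 9.17, 12.5, 18.5 and 16.4 CPM in ApoE-/- replicates 1 to 4 and at 8.996, 9.64, 8.81 and 9.48 CPM in WT. The coefficient of variation was 4.26% among WT mice and 29.3% among ApoE-/- mice, with replicate 1 inside the WT range and the other 3 above it. The means were 14.2 ± 4.16 and 9.23 ± 0.394 CPM (SD, n = 4 each), a 1.53-fold difference. On the log2 scale this was 0.62 (SE 0.21, 95% interval 0.13 to 1.11, p = 0.0194, edgeR adjusted p = 0.28), and an exact two-sided permutation test on the CPM gave p = 0.0857. Without ApoE-/- replicate 1 it was 0.78 (SE 0.15, 95% interval 0.43 to 1.13), a 1.72-fold difference with an adjusted p of 0.0341 by edgeR and 0.000639 by DESeq2. Replicate 1 also had the lowest macrophage marker sum of the ApoE-/- mice, and the part of that in the Plaur values was not tested. Plaur lies 4.76 Mb from Apoe on chromosome 7. Of 95 tested genes within 5 Mb of Apoe, Plaur included and Apoe left out, 20 (21.1%) had an unadjusted edgeR p under 0.05 against 11.4% of all tested genes. An effect of linked DNA from the strain in which Apoe was knocked out cannot be told apart from the genotype.

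**Figure D3:**
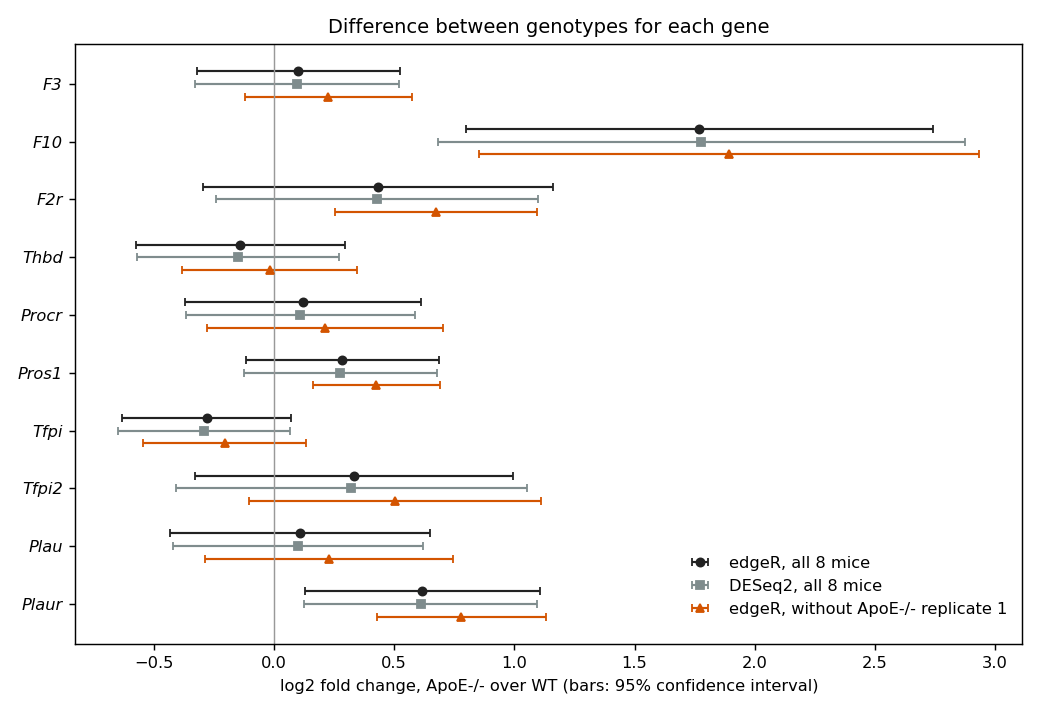
Log2 fold change (ApoE-/- over WT) of each gene with its 95% confidence interval, by edgeR and by DESeq2 over all 8 mice and by edgeR without ApoE-/- replicate 1. With all mice the intervals of F10 and Plaur alone exclude 0 before adjustment, and without replicate 1 those of F2r and Pros1 do too.

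Mouse-to-mouse variation was larger among ApoE-/- than among WT aortas for all 10 genes, as it was for 85.1% of all tested genes. This held for 8 of the 10 and for 73.1% of tested genes without ApoE-/- replicate 1. The coefficient of variation of the CPM ran from 16.7% for Tfpi to 54.2% for F10 in ApoE-/-, and from 4.26% for Plaur to 27.1% for F10 in WT. In F2r it was 44.7% against 10.3%. The spread followed the same mice across genes: ApoE-/- replicate 4 was the highest of its genotype for 7 of the 10, and replicate 1 the lowest for 9.

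Of 46 further genes of these pathways, 29 had enough reads to be tested and 1, F5, passed with edgeR, where 0.464% of all tested genes did. The median log2 fold change of the 29 was 0.18, against 0.05 over all tested genes. It was positive for 18 (62.1%) and negative for 11, where 58% of all tested genes were positive. F5 encodes factor V, the cofactor with which factor X makes thrombin. It lay at 12.2, 14.7, 35.3 and 29.9 CPM in ApoE-/- replicates 1 to 4 and at 3.95, 3.42, 3.77 and 4.55 CPM in WT. Every ApoE-/- mouse exceeded every WT mouse, and the fitted difference was 5.87-fold. On the log2 scale this was 2.55 (SE 0.36), with an adjusted p of 0.0381 by edgeR and 5.11e-09 by DESeq2. On leaving out single mice it remained between 2.27 and 2.76, with an edgeR adjusted p of 0.00636 without ApoE-/- replicate 1 and up to 0.169 otherwise. F5 was thus the one gene of the coagulation lists that rose by the main test, and that call was lost on leaving out any single mouse other than ApoE-/- replicate 1. It was lost with limma-voom too (2.41, adjusted p = 0.0754).

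Among the 16 procoagulant factors, 8 were tested, 3 with positive and 5 with negative log2 fold changes. Vwf, the platelet-binding protein of endothelial storage granules, averaged 685 ± 184 CPM in ApoE-/- and 899.6 ± 209 CPM in WT (SD, n = 4 each), with a log2 fold change of -0.39 (edgeR adjusted p = 0.664), or -0.27 (0.615) without ApoE-/- replicate 1. The fibrinogen chains Fgg and Fga and the kininogen Kng2 had log2 fold changes of -2.03, -1.41 and -0.61, with edgeR adjusted p of 0.609, 0.766 and 0.802. WT replicate 3 held 80 counts of Fga and 44 of Fgg, and without it their log2 fold changes were -0.04 and -0.87. That of Kng2 was -0.17 without WT replicate 1 and -1.21 without ApoE-/- replicate 4. F11 and F13b stayed at or under 3 counts in every library. All 5 tested genes for processing and secretion of factors, such as the carboxylase Ggcx and the cargo receptor Lman1, had positive log2 fold changes, as did 58% of all tested genes. The median of the 5 was 0.22, and none passed. On leaving out single mice Ggcx ran from -0.05 to 0.19 and Lman1 from 0.14 to 0.26.

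Among 6 tested genes of the other anticoagulants none passed, and 3 were positive. Gas6, 1 of the 3, is on the list as a relative of protein S, not as an anticoagulant, and its values are not a change in anticoagulants. It averaged 383 ± 112 CPM in ApoE-/- and 256 ± 26.9 CPM in WT (SD, n = 4 each). Its log2 fold change was 0.58 (edgeR adjusted p = 0.377) and passed without ApoE-/- replicate 1 (0.76, adjusted p = 0.0234). Antithrombin, encoded by Serpinc1, had a log2 fold change of -0.39 (edgeR adjusted p = 0.616).

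In the plasminogen system 7 of 12 genes were tested. Positive log2 fold changes were found for 6 of them, where 58% of all tested genes were positive. The median over the 7 was 0.43, and none passed. Thbs1, which encodes thrombospondin-1, a matricellular protein, lay at 331.3, 391.8, 1068 and 755.7 CPM in ApoE-/- replicates 1 to 4 and at 240.3, 258.5, 231 and 227 CPM in WT. Its genotypes did not overlap, where 5.41% of tested genes lay wholly higher in ApoE-/-. The genotypes differed by 1.41 on the log2 scale (SE 0.36, edgeR adjusted p = 0.137, DESeq2 adjusted p = 0.00564). Thbs1 passed with edgeR without ApoE-/- replicate 1 (1.63, adjusted p = 0.0274). Anxa2, a surface receptor for plasminogen and its tissue-type activator, averaged 280.2 ± 37.2 CPM against 208 ± 12.6 CPM (SD, n = 4 each), again without overlap (log2 fold change 0.43, edgeR adjusted p = 0.207, DESeq2 adjusted p = 0.0285). Without that mouse the DESeq2 log2 fold change of Anxa2 was 0.38 against 0.42 with it, and its adjusted p was 0.0659. Plat, the tissue-type plasminogen activator, lay at 52.0, 90.6, 99.6 and 100.6 CPM in ApoE-/- and at 57.7, 62.1, 57.8 and 52.7 CPM in WT. As in Plaur, replicates 2 to 4 of ApoE-/- exceeded all WT mice and replicate 1 did not. Plat differed by 0.57 on the log2 scale (SE 0.20, edgeR adjusted p = 0.295) and, without replicate 1, 0.75 (adjusted p = 0.00806).

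**Figure D4:**
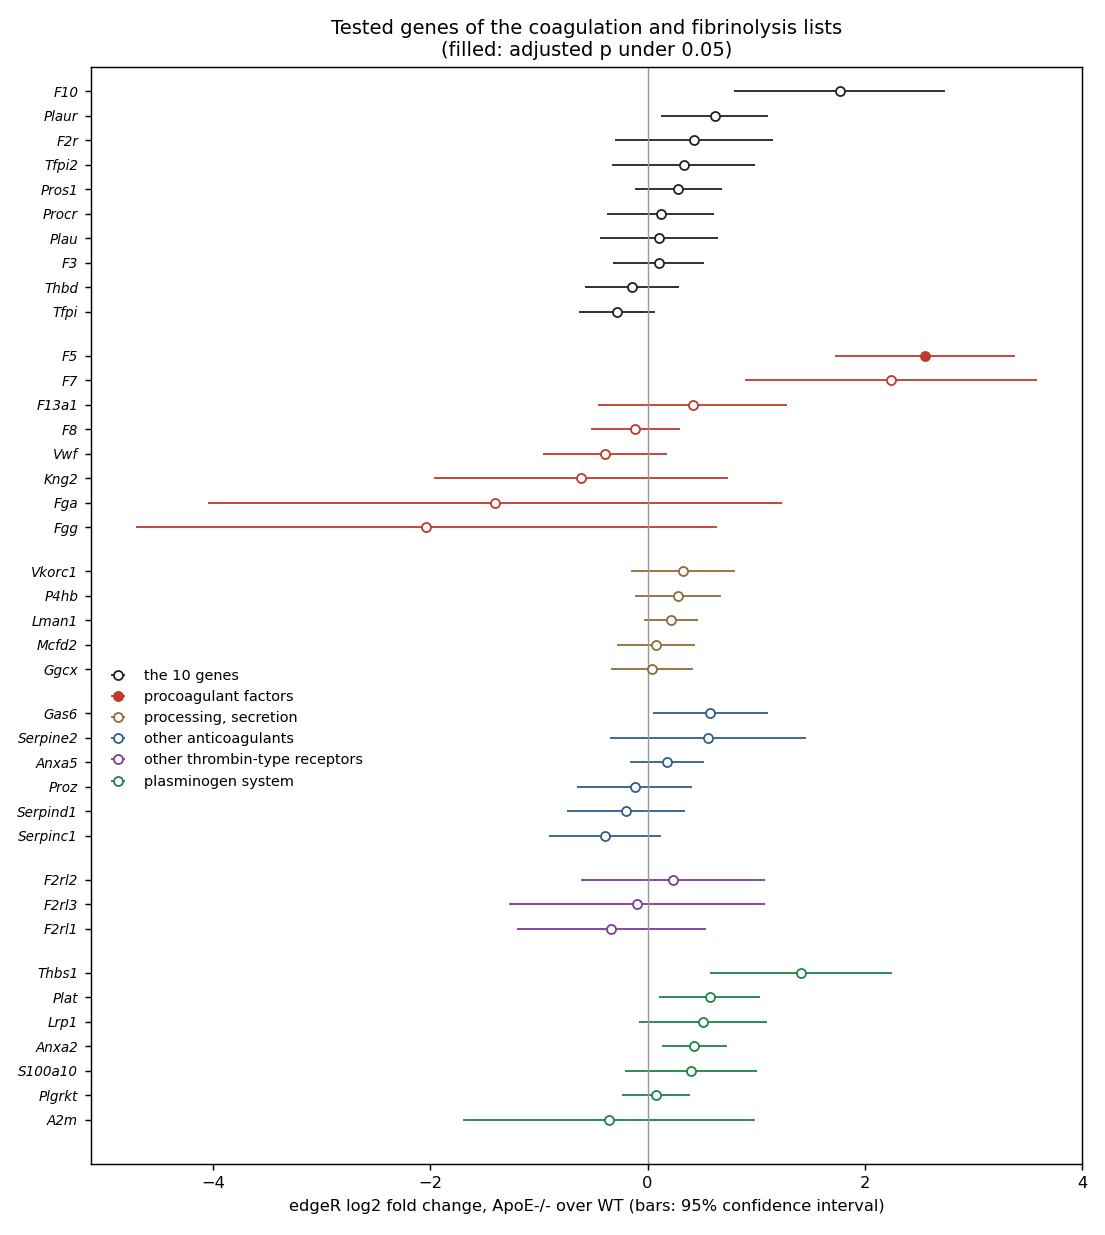
Log2 fold change by edgeR (ApoE-/- over WT, with 95% confidence intervals) of the 10 genes and of 29 tested genes from the pathway lists, coloured by role. F5 alone is filled, for an adjusted p under 0.05.

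Other marker lists were read in the same libraries. Platelet markers summed to 21.1 to 55.6 CPM in ApoE-/- and 20.9 to 31.8 CPM in WT, with replicate 4 of ApoE-/- the highest, the mouse that also led F10, Thbd, Procr, Pros1, Plau and Tfpi2. Fibroblast markers had positive log2 fold changes in 8 of 8 genes (3100 to 8268 CPM against 3652 to 3970 CPM, none passed). Neutrophil markers summed to 7.96 to 17.9 CPM against 2.39 to 3.35 CPM. Csf3r was the largest part of this sum in every library, and only 2 of the 8 markers had enough reads to be tested. Of these 8 markers 4 lay wholly higher in ApoE-/- and Csf3r passed with edgeR (5.33 to 8.77 CPM against 1.16 to 2.11 CPM). Among the 4, Mmp8 had 3 to 37 counts against 1 to 2, while Ly6g stayed at 0 or 1 count in both genotypes. T cell markers summed to 4.77 to 11.5 CPM against 3.44 to 5.83 CPM, and B and plasma cell markers to 21.3 to 71.9 CPM against 17.5 to 35.7 CPM. Cardiac muscle markers had negative log2 fold changes in 9 of 9 genes (160 to 345 CPM against 419 to 737 CPM, median -2.77, 8 wholly lower in ApoE-/-, none passed). Adipocyte markers spanned 2576 to 9182 CPM against 5830 to 11440 CPM, and mesothelial markers 8.41 to 10.6 CPM against 7.48 to 43.8 CPM. The part of these cells in the values of the 10 genes was not tested.

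**Figure D5:**
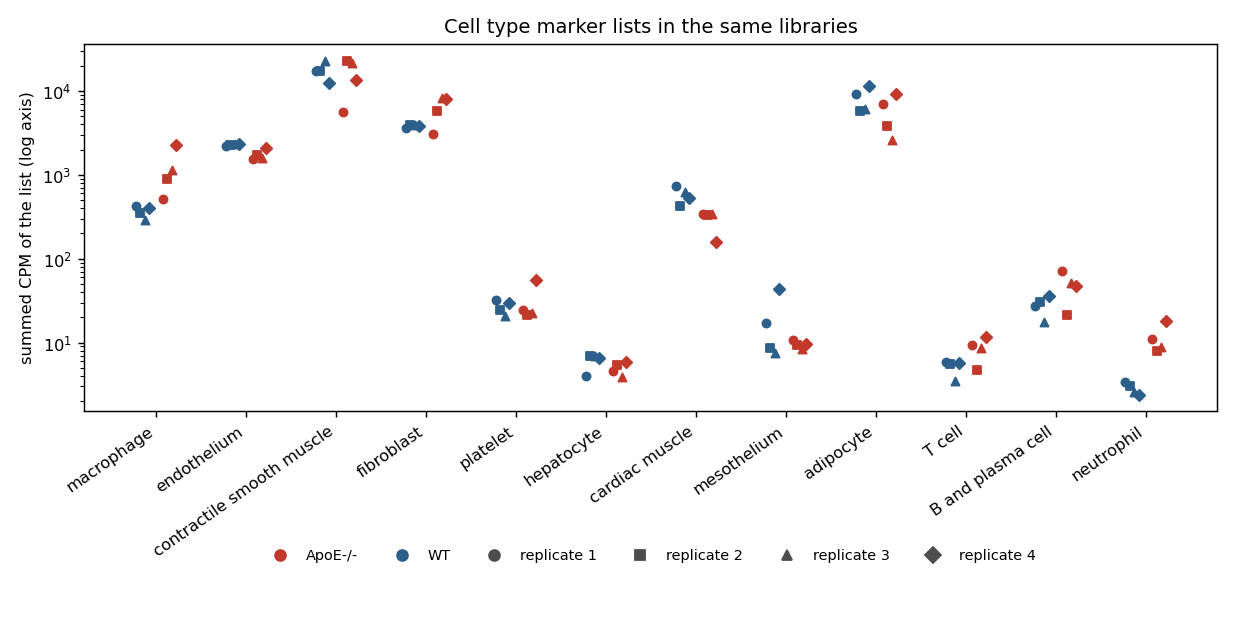
Summed CPM of 12 cell type marker lists in each aorta (log axis), WT in blue and ApoE-/- in red, with 1 marker shape per replicate number. The macrophage sums of the 4 ApoE-/- mice, 519.7 to 2242 CPM, all lie above those of WT, and the smooth muscle sum of ApoE-/- replicate 1, 5559 CPM, lies below all other mice.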

How the data were processed

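Total RNA of whole aortas was sequenced as ribosome-depleted, stranded, paired-end libraries, 1 per mouse. For each library the authors deposited a table of raw counts, the number of read pairs assigned to each gene, not normalized. Their processing notes name TopHat2, HTSeq and GRCm38, with versions and annotation not given in the sources used here. Samples were grouped by the genotype in their labels. The 5 rows that name no gene were left out of library sizes, and 27.9% to 35.6% of the counted pairs fell on genes.

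Counts were fitted across all genes with edgeR 4.0.16 (filterByExpr, TMM factors, robust quasi-likelihood test, two-sided, Benjamini-Hochberg adjustment over 15077 tested genes, threshold 0.05). DESeq2 1.42.0, limma-voom (limma 3.58.1), other scalings and filters, and leaving out each mouse in turn were alternatives, and scripts were tested on simulated data. DESeq2 without single mice and the shares of genes by coefficient of variation were added after the data were seen. RPKM used merged exons of GENCODE on GRCm38. Ratios of counts used a pseudocount of 0.5 and exact permutation tests over 70 assignments.

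The 10 genes and all lists were chosen with earlier results of these data known. All 10 genes are named. Of the pathway lists, genes that passed edgeR are named, and otherwise the 6 lowest p-values among higher genes and the 6 lowest among lower genes. For F10 and Tfpi, which had the lowest p on either side of 0, the 5 nearest genes by root mean square distance are named. F2rl2 and F2rl3, F11 and F13b, and Ggcx and Lman1 were added to complete a list, and Kng1, Plg, Adamts13 and Serpinf2 after their values were seen. A gene of the pathway lists, and the ratio that used it, are not reported here. Depth was 18375898 to 23940156 pairs on genes. Low genes such as F10 and Tfpi2 rest on few pairs, and without molecular identifiers counting error is a lower limit.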

Additional observations from a re-analysis of the deposited data

Results flagged for a closer look

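Within each genotype, the highest and lowest of 4 values of the 10 genes, of F5 and of the log2 ratio of F3 to Tfpi counts were compared with the rest by Dixon's ratio of gap to range, at its 95% critical value in 24 groups, of which chance passes about 1 in 20, or 1.2. ApoE-/- replicate 4 stood apart from its genotype for F10, with a ratio of 0.8482 (1.82 CPM against 0.653 to 0.831 CPM in the other 3). WT replicate 4 stood below its genotype for F2r, with a ratio of 0.8804 (48.8 CPM against 59.7 to 61.2 CPM).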

How the results depend on the processing

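Over all tested genes, 70 passed with edgeR (56 higher, 14 lower), 721 with DESeq2 (477 higher, 244 lower), 29 with limma-voom (21 higher, 8 lower) and 2 with a replicate block. Leaving out single mice gave 0 to 593 genes with edgeR, 593 being without ApoE-/- replicate 1, and 431 to 1548 with DESeq2. Of the 10 genes 0 passed with edgeR, 1 with DESeq2 (F10), 0 to 1 on leaving out single mice with edgeR (Plaur without ApoE-/- replicate 1) and 0 to 4 with DESeq2. The labels do not say that the replicate numbers pair the mice. Correlations of same-numbered deviations were 0.06, -0.45, 0.32 and 0.16, which with 4 mice per genotype cannot exclude a pairing. With the replicate block 0 of the 10 genes passed. The log2 fold change turned sign for F3 (-0.0271 to 0.2262), Procr (-0.0838 to 0.2113) and Plau (-0.1327 to 0.2378) on leaving out single mice. Of 175 values of single genes under alternatives, 161 kept direction and side of the threshold, 2 came to pass (F10 with DESeq2, Plaur without ApoE-/- replicate 1), 9 of F5 no longer passed (7 single mice left out, limma-voom, and the replicate block at 2.42 with an adjusted p of 0.114) and 3 turned sign. The exact p for the ratio of F3 to Tfpi stayed above 0.05 under each alternative tried. The cause of these differences was not tested. F10 left the test when 10 counts were required in every sample. At 4 mice per genotype and 4 to 42 counts, the F10 level is known only roughly.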

Other observations

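Among the pathway genes with too few reads for the edgeR filter, chosen here after their values were seen, Kng1 was counted 4 to 11 times in each ApoE-/- library and 0 times in each WT library, Plg 4 to 14 times against 0 to 2 times, and Adamts13 6 to 15 times against 0 to 5 times. Serpinf2, the main inhibitor of plasmin, lay wholly lower in ApoE-/- on the CPM scale, with 1 to 3 counts against 3 to 7. DESeq2, with its own filter on low means, gave adjusted p of 0.0108, 0.259, 0.526 and 0.575 for Kng1, Plg, Adamts13 and Serpinf2. Kng1 passed that filter only through its ApoE-/- counts, so its p is no support for a difference. Kng1 and Kng2 are close copies, so reads may be split between them.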
